A study of Mus musculus with 9 samples.

Results

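The proteasome genes of N1E-115 cells, a mouse neuroblastoma line, were followed in control cells between 4 h and 24 h of neurite growth and after Hmgn5 was lowered. The 46 genes were those whose annotated symbol begins with Psm, a letter from a to g and a number, out of 22180 genes with a probe set assigned to 1 gene. The inducible immunoproteasome subunits Psmb8, Psmb9 and Psmb10 were left out by that rule and are described separately. The rule reads symbols, and it uses array values only to represent a gene with several probe sets by the one with the highest mean. The rule also took in Psmc3ip, a partner of meiotic recombinases, and Psme3ip1, a protein that binds the activator Psme3. Neither is a proteasome subunit, and without them 44 genes remained. Psma4, the remaining standard subunit of the alpha ring, was measured only by probe sets assigned to more than 1 gene and was not analysed here.

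All cells were N1E-115 cells transfected with siRNA at 80 nM, kept overnight without serum and replated on laminin. Control siRNA cells were taken at 4 h and at 24 h and cells with a pool of Hmgn5 siRNAs at 24 h, which made 3 groups of 3 arrays. Total RNA of whole cells was measured on whole-transcript arrays, and each value is a log2 expression value. The labels do not say whether samples of a group came from separate cultures, so every p-value measures only how far these arrays scatter, and part of that scatter may be technical. The material was 1 cell line, the arrays held no Hmgn5 siRNA group at 4 h, and in such bulk RNA fewer cells with a transcript and less of it per cell cannot be told apart.

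The proteasome is the main protease for ubiquitin-tagged proteins in the cytosol and nucleus. Its 20S core is a barrel of stacked alpha and beta rings, in which Psmb5, Psmb6 and Psmb7 carry the catalytic sites. The 19S cap binds and unfolds the substrate with a ring of ATPases (Psmc1 to Psmc6) on a base, and its lid removes ubiquitin through Psmd14. Dedicated chaperones assemble the rings and the base, and activators such as Psme1 to Psme4 can take the place of the cap. When proteasome activity drops, the transcription factor Nfe2l1 raises many subunit genes together through antioxidant response elements. In neurons the proteasome is known for turnover of growth cone and synaptic proteins.

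Hmgn5, the targeted nucleosome-binding protein, fell by 1.21 log2 units with its siRNA (SE 0.09, limma adjusted p = 0.00367), to 43.1% of the 24 h control, and was lower on all 3 arrays. Its probe set was dim, between the 13.8 and 42.5 percentiles over the arrays, so these are differences of array signal and may understate that of the transcript. Of the control 4 h arrays, replicate 2 stood apart: limma gave it a weight of 0.198, and its correlations with the other arrays reached down to 0.978, where pairs without it had at least 0.991. Among markers of the line, 12 of the 15 listed were measured, between the 40.3 and 99.9 percentiles of all probe sets on the arrays with a median of 97.7. Their summed signal on a linear scale was 21167 on control 4 h replicate 2 and 25439 and 25686 on the other 4 h arrays, and 27641 to 29934 at 24 h. Markers of glia, fibroblasts, leukocytes and endothelium were dimmer, between the 9.83 and 61.5 percentiles with list medians of 25.7 to 51.4. Over the 9 arrays their summed signals ranged from 83.0 to 98.9 for 4 glial genes, 207 to 224 for 6 fibroblast genes, 88.6 to 94.9 for 5 leukocyte genes and 208 to 224 for 6 endothelial genes. The part of these differences in the results was not tested.

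No proteasome gene passed the test in either comparison of the design. Most intervals of the differences lay within 1.5-fold in either direction, as did most of those of all genes. The threshold for a call was an adjusted p under 0.05, by Benjamini-Hochberg over all 22180 genes. Between 4 h and 24 h in control cells, limma called 0 of the 46, where 4.34% of all genes were called, 2.17% higher and 2.17% lower. An unadjusted p under 0.05 was found for 5 of the 46 (Psme3, Psmd9, Psmg2, Psma7 and Psme1), against 18% of all genes. With Hmgn5 siRNA at 24 h, limma again called 0 of 46, where 0.0135% of all genes were called, and 2 had an unadjusted p under 0.05 (Psmb11 and Psmd9), against 5.25%. An ordinary linear model without the empirical Bayes step called 0 in both comparisons, where it called 2.16% and 0% of all genes. Limma with array weights called 2 over time and 0 with the siRNA, where 7.6% and 0.0316% of all genes were called. Of the 95% intervals over time, 44 of 46 lay wholly within a 1.5-fold difference in either direction and 26 within 1.2-fold. Of all 22180 genes, 20217 and 8165 did so. With the siRNA all 46 lay within 1.5-fold and 28 within 1.2-fold, against 21460 and 10492 of all 22180 genes. The exceptions over time were Psmb4, at -0.01 to 0.76 log2 units, and Psmc5, at -0.14 to 0.59.

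**Figure D1:**
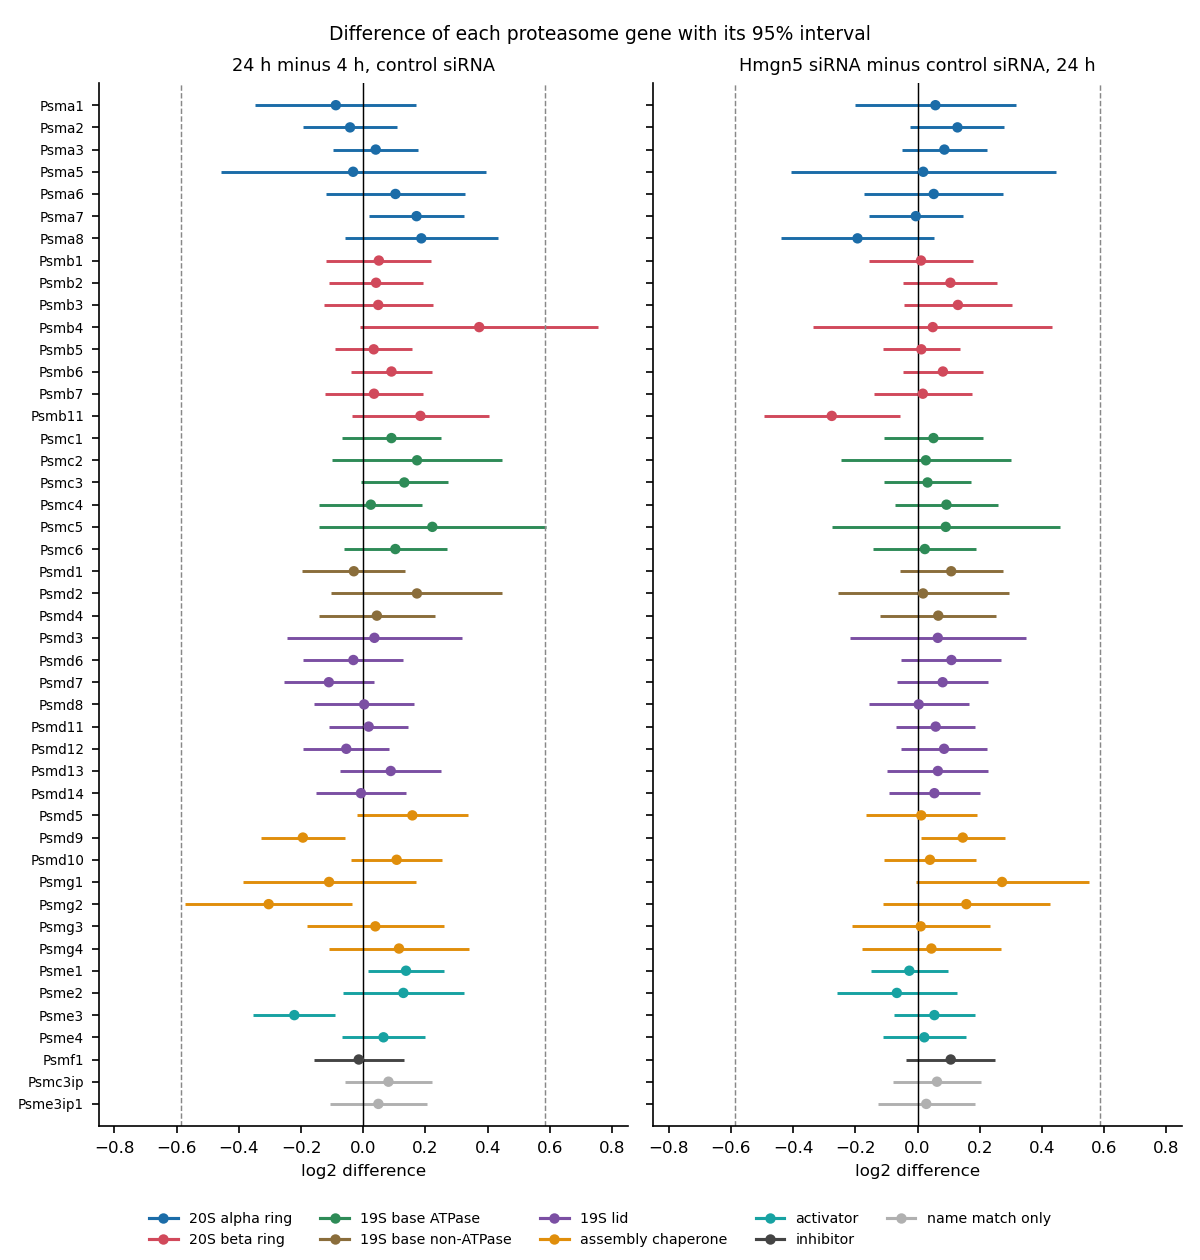
Log2 difference (x axis) of each of the 46 proteasome genes (y axis), coloured by role, between the times in control cells and between the siRNAs at 24 h. Points are limma estimates from 3 arrays a group, bars are 95% intervals and dashed lines mark 1.5-fold: 44 intervals lie within those lines over time and 46 with the siRNA. Of all 22180 genes, 20217 and 21460 lie within them.

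Most of the genes were bright. Apart from Psma5, Psma8 and Psmb11, their values stood between the 61.5 and 99.6 percentiles of all probe sets on an array. Psmb5, the chymotrypsin-like catalytic subunit, had the highest mean signal, at 12.45, 12.45 and 12.36 on the control 4 h arrays, 12.46, 12.48 and 12.42 at 24 h, and 12.45, 12.48 and 12.46 with Hmgn5 siRNA. The 3 groups overlapped, and its intervals were -0.09 to 0.16 over time and -0.11 to 0.14 with the siRNA. Psma8, the alpha subunit of the testis, had the lowest mean signal, between 3.71 and 4.22 over the arrays and the 18.1 to 31.1 percentiles. Psmb11, the beta subunit of the thymic proteasome, lay between the 23.7 and 35.3 percentiles. Psma5, a standard alpha subunit, was read by a pair of probe sets, both dim, so its level here says little about the transcript. Its chosen probe set had the widest interval of the genes with the siRNA, -0.41 to 0.44. Psmc2 and Psmg2 each also had a second, dimmer probe set. For Psmc2 it gave a difference of 0.05 over time where the chosen probe set gave 0.17, a value that was 0.00 without control 4 h replicate 2. For Psmg2 it gave 0.02 where the chosen one gave -0.30. That second probe set read only 4.18 to 4.37 over the arrays, about as dim as those of Psma5, so it says little about direction.

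One array shaped the comparison over time. Control 4 h replicate 2 was the lowest of its group for 33 of the 46 genes, or 71.7%, where it was the lowest for 37.5% of all genes. Relative to the 24 h control means, the median over the 46 genes was -0.13 on this array and -0.01 on each of the other 4 h arrays, and 18 of the 46 lay below -0.2 on it, against 20.3% of all genes. On the other 4 h arrays 0 did so, against 12.6% and 12.5% of all genes. Set against the mean of replicates 1 and 3, 15 genes were lower on it by over 0.2 log2 units (32.6%, against 18.2% of all genes) and 4 were higher (Psma1, Psmg2, Psmd8 and Psmb7), against 18.1% of all genes. Replicates 1 and 3 differed from each other by over 0.2 for 2 genes. That is a gap between single arrays rather than from a mean, and its share over all genes was not counted. The genes furthest below the mean of replicates 1 and 3 on control 4 h replicate 2 were of several roles. They were Psmb4 of the beta ring, the ATPases Psmc5 and Psmc2, Psmd2 of the base, Psmd3 of the lid and Psma5 of the alpha ring.

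**Figure D2:**
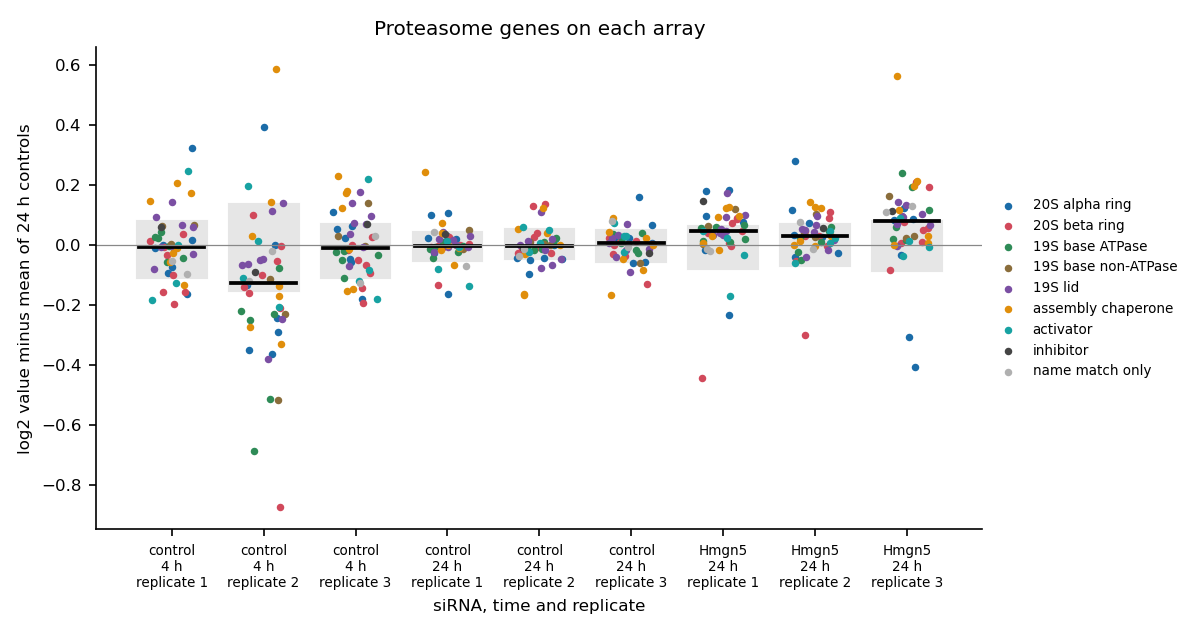
Value of each of the 46 proteasome genes on each array (x axis), as log2 value minus that gene's mean over the 24 h control arrays (y axis), coloured by role. Black lines are medians over the 46 genes and grey boxes span the middle 50% of all 22180 genes: the median is -0.13 on control 4 h replicate 2 and between 0.03 and 0.08 on the Hmgn5 siRNA arrays.

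The median difference between the times was 0.05 log2 units, or 103% of the 4 h signal, with 33 genes above 0 (all genes had a median of 0.02, and 54.9% were above 0). The differences ranged from -0.30 for Psmg2 to 0.37 for Psmb4, with a median SE of 0.07. Without control 4 h replicate 2 the median was 0.00, with 23 genes above 0 and 23 below, and 0 genes were called where 5.58% of all genes were. The interval of 45 genes then lay within 1.5-fold and that of 33 within 1.2-fold, and the range was -0.23 to 0.20. By groups of arrays, all 3 at 24 h lay above all 3 at 4 h for 6 genes (Psma7, Psme1, Psmb4, Psmc3, Psmb11 and Psmb6), where 11.3% of all genes did so. They lay below for 3 (Psme3, Psmd9 and Psmg2), where 9.98% of all genes did so. Both shares were near or below those of all genes.

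In the alpha ring, which gates the entry to the core, 4 of 7 genes were above 0 over time, and 3 of 7 without control 4 h replicate 2. Psma7 had the smallest p, with 10.17, 10.02 and 10.08 at 4 h and 10.36, 10.22 and 10.20 at 24 h, groups that did not overlap. Its difference was 0.17 (SE 0.07, limma adjusted p = 0.216), and 0.14 without control 4 h replicate 2. In the beta ring all 8 genes were above 0, with a median of 0.05, and 6 of 8 were above 0 without that array. Psmb4, a structural beta subunit, read 9.79, 9.02 and 9.75 at 4 h, 9.89, 9.94 and 9.86 at 24 h, and 9.94, 9.94 and 9.95 with Hmgn5 siRNA. The low value was that of control 4 h replicate 2 alone. Its difference of 0.37 (SE 0.17, adjusted p = 0.291) became 0.12 without that array (adjusted p = 0.236).

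Of the ATPases, which unfold substrates and drive them into the core, all 6 were above 0, with a median of 0.12. Without control 4 h replicate 2, 4 of the 6 were above 0 and the median was 0.01. Psmc3 had the smallest p, at 8.43, 8.25 and 8.37 at 4 h against 8.46, 8.46 and 8.52 at 24 h, a difference of 0.13 (SE 0.06, adjusted p = 0.306) between groups that did not overlap. Psmc5 read 8.38, 7.65 and 8.31 at 4 h and 8.35, 8.35 and 8.31 at 24 h, so that replicate 2 alone stood away from the rest. Its difference of 0.22 was -0.01 without that array. The same holds for Psmd2, a scaffold of the base and the gene of its role with the smallest p over time. Psmd2 had 10.88, 10.36 and 10.88 at 4 h and 10.87, 10.88 and 10.88 at 24 h, with a difference of 0.17 (adjusted p = 0.519) and -0.00 without that array. In the lid 4 of 8 genes were above 0 and the median was -0.00, and without control 4 h replicate 2 these were 2 of 8 and -0.06. Psmd7, a lid subunit that pairs with the deubiquitinase Psmd14, had the smallest p there, at -0.11 (SE 0.06, adjusted p = 0.422).

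**Figure D3:**
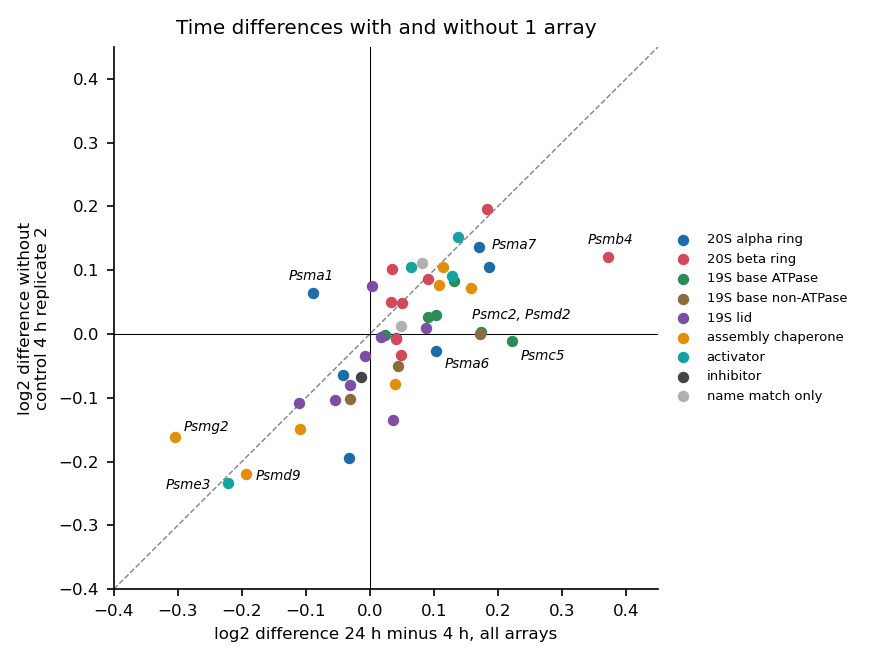
Log2 difference 24 h minus 4 h in control cells for the 46 proteasome genes with all arrays (x axis) and without control 4 h replicate 2 (y axis), coloured by role. On the dashed line both are equal: Psmb4 moves from 0.37 to 0.12 and Psmc5 from 0.22 to -0.01, while Psme3 and Psmd9 stay near -0.2 on both axes.

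The lowest adjusted p-values over time belonged to an activator and a chaperone, both with lower values at 24 h. Psme3, the nuclear activator PA28 gamma, read 9.14, 9.08 and 9.11 at 4 h, 8.81, 8.94 and 8.92 at 24 h, and 8.91, 8.93 and 8.98 with Hmgn5 siRNA. All 24 h arrays of either siRNA lay below all 4 h arrays. The difference in control cells was -0.22 (SE 0.06, interval -0.35 to -0.09, adjusted p = 0.0691), or 85.8% of the 4 h signal, and -0.23 without control 4 h replicate 2 (adjusted p = 0.0595). It passed with array weights (adjusted p = 0.0297) and with the dimmest 33% of genes removed (0.0485), and it missed the threshold in the other alternatives run. Psmd9, a chaperone of base assembly, read 7.57, 7.51 and 7.60 at 4 h and 7.30, 7.40 and 7.39 at 24 h, again without overlap. Its difference was -0.19 (SE 0.06, adjusted p = 0.116), and it passed with array weights alone (adjusted p = 0.0382).

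The other activators lay the other way. Psme1, a subunit of the interferon-inducible activator PA28, read 9.77, 9.85 and 9.84 at 4 h and 9.97, 9.96 and 9.93 at 24 h. These groups did not overlap, and the difference was 0.14 (SE 0.05, adjusted p = 0.221). Its partner Psme2 was at 0.13 and Psme4, the activator PA200, at 0.06, both with overlapping groups. Among the chaperones of the alpha ring, Psmg2 read 9.63, 10.07 and 9.66 at 4 h and 9.56, 9.32 and 9.58 at 24 h. Replicate 2 was its highest 4 h array, and the difference of -0.30 (adjusted p = 0.213) was -0.16 without it. Its partner Psmg1 was at -0.11 and Psmf1, an inhibitor of the core, at -0.01.

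**Figure D4:**
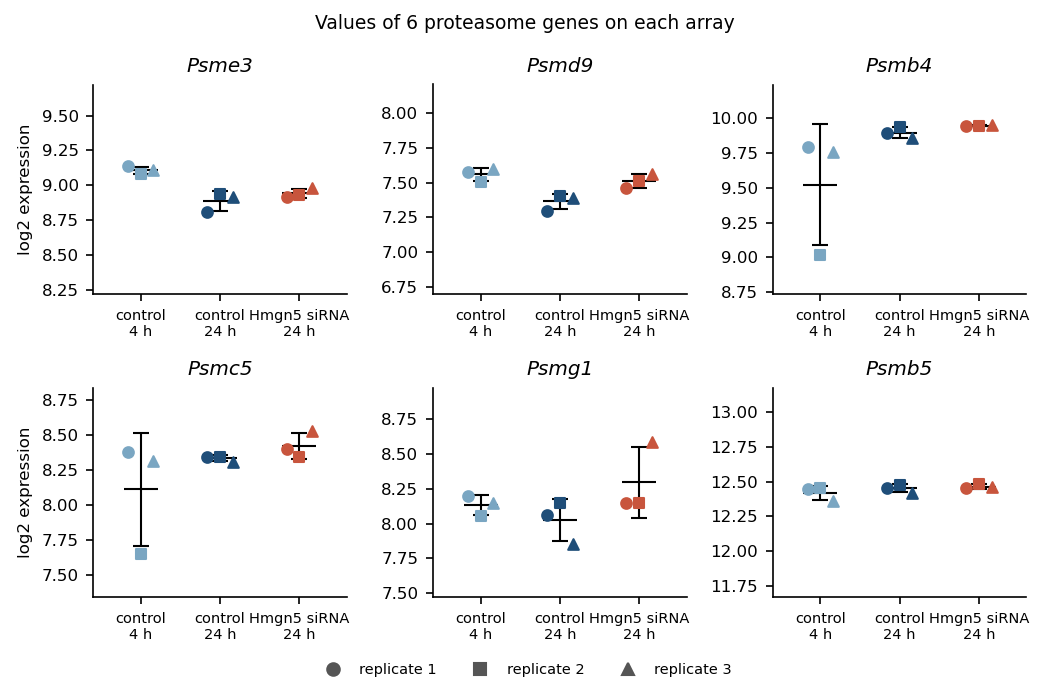
Log2 expression (y axis) of 6 proteasome genes on each array by group (x axis), with horizontal lines for the mean and bars for the SD of 3 arrays. Psme3 and Psmd9 are lower at 24 h than at 4 h with control siRNA, Psmb4 and Psmc5 have 1 low array at 4 h, Psmg1 has 1 high array with Hmgn5 siRNA, and Psmb5 differs little between groups. All panels span the same number of log2 units.

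With Hmgn5 siRNA the differences at 24 h were small and mostly above 0. The median over the 46 genes was 0.05 log2 units, or 104% of control, where all genes had a median of -0.00, and 41 genes were above 0, where 49.2% of all genes were. On the 3 siRNA arrays the median over the genes was 0.05, 0.03 and 0.08 above the 24 h control mean, against -0.00, -0.00 and 0.01 on the control arrays, whose own mean is the zero point. All 3 siRNA arrays lay above all 3 control arrays for 13 genes, where 6.65% of all genes did so, and below for 0 genes, where 5.62% did so. The 13 were Psma3 and Psma6, Psmb2, Psmb3, Psmb4 and Psmb6, Psmd1, Psmd11, Psmd12 and Psmd13, the chaperones Psmd9 and Psmg2, and Psmf1. They included 0 of the 6 ATPases and 0 of the 4 activators, groups too small to tell these counts from the 6.65% of all genes. The genes were read on the same arrays and are not independent of each other. The 6 lists of related genes described below were also mostly above 0. None of the 13 passed the test, and the smallest adjusted p of any of the 46 was 0.884. Values scaled by cyclic loess gave 35 genes above 0, a median of 0.03 and 7 genes with higher, non-overlapping groups against 6.88% of all genes. Centring each array on its median gave 42 above 0, a median of 0.06 and 11 such genes against 7.99%. With 1 array left out, the fewest genes above 0 were 37, without control 24 h replicate 2 (median 0.06). The lowest median was 0.04, without Hmgn5 siRNA replicate 3, where 40 genes were above 0.

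Psmd9 read 7.46, 7.51 and 7.56 with Hmgn5 siRNA against 7.30, 7.40 and 7.39 with control siRNA, without overlap. The difference was 0.15 (SE 0.06, interval 0.01 to 0.28, adjusted p = 0.926), which did not pass. The same 24 h control arrays enter this difference and the one over time, with opposite sign. Psmb11 had the lowest difference, -0.28 (SE 0.10, adjusted p = 0.884), with 3.87, 4.01 and 4.23 against 4.18, 4.44 and 4.32, groups that overlapped near the dim end of the arrays. Psmg1, which starts alpha ring assembly with Psmg2, had the highest, 0.27 (SE 0.12, adjusted p = 0.961). Its values were 8.15, 8.15 and 8.59 against 8.06, 8.15 and 7.86, and the difference was 0.13 without Hmgn5 siRNA replicate 3. Of the alpha subunits, Psma2 had the smallest p, at 0.13 (interval -0.02 to 0.28, adjusted p = 0.979). All 6 ATPases were above 0, between 0.02 and 0.09, and Psmc4 had the smallest p at 0.09 (interval -0.07 to 0.26, adjusted p = 0.989). Psmd1, a scaffold of the base, was at 0.11, and all 8 lid genes were between 0.00 and 0.11, with Psmd6 at the upper end. Of the activators, Psme3 was at 0.05, Psme4 at 0.02, Psme1 at -0.03 and Psme2 at -0.07. Psmf1 was at 0.11 (interval -0.04 to 0.25), with 9.35, 9.26 and 9.32 against 9.24, 9.19 and 9.18.

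Set against control cells at 4 h, cells with Hmgn5 siRNA at 24 h differed in both siRNA and time, and this comparison shares its arrays with the 2 others. Limma called 0 of the 46 genes, where 2.57% of all genes were called, and 8 had an unadjusted p under 0.05, against 15.7%. An ordinary linear model and array weights also called 0, where they called 1.15% and 5.53% of all genes. The median was 0.10, 38 genes were above 0 (51.9% of all genes), and without control 4 h replicate 2 the median was 0.06 with 36 above 0. Groups did not overlap for 12 higher genes, against 10.3% of all genes, and for 1 lower gene, Psme3, against 8.59%. The smallest adjusted p was that of Psmb6, the caspase-like catalytic subunit, with 9.08, 9.14 and 9.22 at 4 h, 9.23, 9.23 and 9.25 at 24 h and 9.31, 9.35 and 9.30 with the siRNA. All arrays of a later group lay above all of an earlier one in that order. The difference was 0.17 (SE 0.06, interval 0.04 to 0.30, adjusted p = 0.176), made up of 0.09 over time and 0.08 with the siRNA. Psme3 stood at -0.17 in this comparison (adjusted p = 0.196).

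Promoters from RefSeq (GRCm38.p6) were searched because members of this family are known to share antioxidant response elements. Of the 46 genes, 38 had 1 or more promoters in the table, 42 in all, each running from 250 bases before the transcript start to 50 after it. The core of the element, TGACNNNGC or TGAGNNNGC on either strand, was found in 16 of the 38 genes, or 42.1%, against 30.8% of all 27025 genes. By promoters it was found in 17 of 42, or 40.5%, against 27.8% of all 32851 promoters. The members' promoters had a median GC content of 58.2%, against 52.7% of all, and the part of this in the share was not tested. A CCAAT box, CCAAT on either strand, was in 35.7% of the members' promoters and 37.4% of all. The heat shock element core TTCNNGAA was in 4.76%, those of Psmd4 and Psme3, and in 8.52% of all. For 7 genes, Psmc3ip among them, a core lay wholly within the 60 bases before the start. These stretches are shown because their matches lie closest before the start. The share of all promoters with a core that close was not counted. The capitals mark the core in the direction of the gene, and a match is a description of the letters, not a bound site.
Psmb3, chr11:97703374-97703433 (+ strand): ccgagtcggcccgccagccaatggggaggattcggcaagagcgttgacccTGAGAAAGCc
Psmb5, chr14:54617996-54618055 (- strand): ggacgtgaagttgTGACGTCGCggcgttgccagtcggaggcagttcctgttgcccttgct
Psmb6, chr11:70525297-70525356 (+ strand): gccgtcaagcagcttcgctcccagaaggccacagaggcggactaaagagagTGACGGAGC
Psmd12, chr11:107479468-107479527 (+ strand): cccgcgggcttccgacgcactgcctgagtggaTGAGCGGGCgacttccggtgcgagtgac
Psmd9, chr5:123228130-123228189 (+ strand): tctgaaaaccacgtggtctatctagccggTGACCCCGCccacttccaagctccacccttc
Psmg4, chr13:34162904-34162963 (+ strand): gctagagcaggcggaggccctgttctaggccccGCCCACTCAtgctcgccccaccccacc
Psmc3ip, chr11:101095436-101095495 (- strand): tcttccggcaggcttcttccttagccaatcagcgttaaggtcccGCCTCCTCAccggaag

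The cores of Psmg4 and Psmc3ip match on the opposite strand and are printed as they read along the gene. Psmb6, whose core ends at the start site, had differences of 0.09 over time and 0.08 with the siRNA. Psmb3 was at 0.05 and 0.13, Psmb5 at 0.03 and 0.01, Psmd12 at -0.05 and 0.09, Psmd9 at -0.19 and 0.15, and Psmg4 at 0.11 and 0.04. The 16 genes with a core had a median of 0.08 over time and 0.05 with the siRNA. The 22 without one had 0.04 and 0.05. Both medians over time include control 4 h replicate 2. Leaving that array out lowered the median over all 46 genes from 0.0459 to 0.00153. The split by core was not repeated without it, so 0.08 against 0.04 does not show that genes with a core rose more.

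Other genes of the pathway were counted in 6 lists, beside the 2.17% of all genes called in each direction over time. The lists were chosen with earlier results of these data known, so that share is given for scale only. Of the proteasome partners outside the naming rule, 14 of 18 were measured, and over time 0 were called higher and 1 lower. That gene was Zfand5, a zinc finger protein that binds the proteasome, with 9.80, 9.87 and 9.82 at 4 h and 9.49, 9.42 and 9.52 at 24 h. It fell by 0.35 (SE 0.06, adjusted p = 0.0121), a call lost without control 24 h replicate 2 (adjusted p = 0.0549) and with only the 2 groups fitted (0.0506). Usp14 and Uchl5, the deubiquitinases of the cap, were at -0.13 and -0.10, Sem1, a small lid subunit, at 0.15, and Pomp, the chaperone of core maturation, at -0.05. Of 12 genes for ubiquitin, its activation and its conjugation, out of 17 listed, 0 were called higher and 1 lower. The latter was Uba6, an activating enzyme, at -0.47 (adjusted p = 0.0396). That call was kept without control 4 h replicate 1 or 2 and lost without any other array (adjusted p up to 0.14). It was also lost with only the 2 groups fitted (0.127), without empirical Bayes (0.124) and with cyclic loess (0.0516). Fitting replicate number as a block lost it as well. The median of that list was -0.16.

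Genes of endoplasmic reticulum associated degradation, which hands misfolded secretory proteins to the proteasome through Vcp, were measured for 18 of 20. Over time 0 were called higher and 3 lower, with a list median of -0.14. Herpud1, a stress-induced scaffold of the retrotranslocation complex, read 10.18, 10.00 and 10.09 at 4 h and 9.62, 9.59 and 9.63 at 24 h. It fell by 0.48 (SE 0.06, adjusted p = 0.00418) and was called in each of the 9 fits with 1 array left out. Edem3 and Edem1, which trim mannose from misfolded glycoproteins, fell by 0.34 and 0.35 (adjusted p = 0.0159 and 0.0256). Edem3 missed the threshold when control 24 h replicate 1, 2 or 3 was left out (adjusted p up to 0.0665). Edem1 missed it when control 4 h replicate 1 or 3, a 24 h control array or the first Hmgn5 siRNA array was left out (up to 0.0929). With only the 2 groups fitted and with median centring neither passed (Edem3 0.0548 and 0.0555, Edem1 0.0926 and 0.0853). Edem1 also missed it without empirical Bayes (0.0561) and with the mean over its probe sets (0.186), where its difference was -0.17. With replicate number fitted as a block Edem1 was not called, while Edem3 and Herpud1 were. Without control 4 h replicate 2 the list had 1 gene called higher and 6 lower. In that fit 586 of all 22180 genes were called higher and 652 lower, or 5.58%.

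Of 13 measured regulators of proteasome genes, out of 15, 0 were called higher and 1 lower over time: Nfyc, a subunit of the CCAAT-binding factor, at -0.30 (adjusted p = 0.0378). Its call was kept without control 4 h replicate 2 or control 24 h replicate 3 and lost without any other array (adjusted p up to 0.136). It was also lost with only the 2 groups fitted (0.105), without empirical Bayes (0.0626) and with median centring (0.126). Nfe2l1 read 9.56, 8.76 and 9.47 at 4 h and 9.51, 9.50 and 9.50 at 24 h, with its low value on control 4 h replicate 2, and its difference of 0.24 did not pass (adjusted p = 0.519) and was -0.01 without that array. Of 13 measured targets of Nfe2l2 (Nrf2), the relative of Nfe2l1 in the oxidative response, out of 17, 1 was called higher and 3 lower. Hmox1, heme oxygenase, read 9.60, 9.14 and 9.42 at 4 h and 8.55, 8.37 and 8.65 at 24 h, and fell by 0.87 (SE 0.11, adjusted p = 0.00443). Gclc and Gclm, the subunits of the enzyme that limits glutathione synthesis, fell by 0.48 and 0.39 (adjusted p = 0.00835 and 0.0179). Me1, malic enzyme, was at 0.30 (adjusted p = 0.0491), and of the fits with 1 array left out only that without control 4 h replicate 3 kept its call (adjusted p up to 0.15 in the others). It was also lost with only the 2 groups fitted (0.138), without empirical Bayes (0.0847), with median centring (0.0755) and with every probe set tested (0.0516). Fitting replicate number as a block lost the call of Me1 too. The calls of Hmox1 and Gclc were kept in all 9 fits with 1 array left out, and that of Gclm was lost without control 24 h replicate 1 or 2 (up to 0.0744) and with only the 2 groups fitted (0.0635).

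The immunoproteasome exchanges inducible catalytic subunits into the core. Psmb8, Psmb9 and Psmb10 were at 0.07, 0.10 and 0.15 over time and none was called (adjusted p = 0.707, 0.627 and 0.18). Of this list with antigen processing genes, 10 of 10 were measured, 2 were called higher and 0 lower, and the median was 0.15. The 2 were Tap1, a subunit of the peptide transporter, at 0.54 (adjusted p = 0.045), and Tapbp, which links it to class I molecules, at 0.45 (adjusted p = 0.0431). The call of Tap1 was kept without control 4 h replicate 1 or 2 and lost without any other array (adjusted p up to 0.144). Of these 9 fits only that without control 4 h replicate 1 kept the call of Tapbp (up to 0.152 in the others). Both were lost with only the 2 groups fitted (Tap1 0.14, Tapbp 0.112), without empirical Bayes (0.148 and 0.126) and with median centring (0.0602 and 0.0509), and Tapbp with the mean over its probe sets (0.0533). With replicate number fitted as a block neither was called. With Hmgn5 siRNA at 24 h limma called 0 genes of these 6 lists. Above 0 were 11 of 14 partners (median 0.05), 7 of 10 immunoproteasome genes (0.04) and 10 of 13 regulators (0.07). So were 12 of 13 Nrf2 targets (0.12), 11 of 12 ubiquitin genes (0.08) and 14 of 18 degradation genes (0.04), against 49.2% of all genes. By list, 1 of 14 partners, 0 of 10 immunoproteasome genes, 3 of 13 regulators, 4 of 13 Nrf2 targets, 1 of 12 ubiquitin genes and 1 of 18 degradation genes had an unadjusted p under 0.05, against 5.25% of all genes. The lowest adjusted p was that of Nqo1, a quinone reductase, at 0.38 (0.456), with 7.41, 7.54 and 7.67 against 7.19, 7.18 and 7.10.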

How the data were processed

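The authors deposited log2 expression values per probe set for 9 arrays, made with oligo and RMA per the submitters' processing notes (no version is given there). RMA corrects background, makes the arrays' distributions alike and summarises probes, so these values cannot show a shift common to most genes. The genome build of the array is not given in the sources used here. Groups came from the sample titles, and all 9 columns were used.

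Of 41345 probe sets, 23521 had 1 gene symbol in the platform annotation, 1814 several and 16010 none. The probe set with the highest mean stood for each of 22180 genes. Tests used limma 3.58.1 in R 4.3.3 (lmFit, eBayes) on group means of all 9 arrays, with 6 residual and 3.55 prior degrees of freedom and Benjamini-Hochberg adjustment over all genes. Intervals are 95% intervals of the moderated statistic. The fit was tested on simulated data with 200 changed genes. The members and lists were chosen with earlier results of these data known. Named genes are those with the smallest p of each role or list, the highest and lowest by mean, and those with several probe sets. Psmb4, Psmc5, Psmg1, Psmg2 and the members of the sequence search were named after their values were seen. The alternatives varied the prior, the samples fitted, array weights, scaling, the filter on dim genes, the use of probe sets, the replicate block and each array.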

Additional observations from a re-analysis of the deposited data

How the results depend on the processing

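No direction of a called result reversed under any alternative run. The count of genes called over time was 0 higher throughout. It was 0 lower except with array weights, where 2 were called (Psme3 at -0.24, adjusted p = 0.0297, and Psmd9 at -0.22, 0.0382), and with the dimmest 33% of genes removed, where 1 was (Psme3 at -0.22, 0.0485). Of all genes tested, 7.6% were called over time with array weights and 8.4% with the dimmest removed. Both other comparisons had 0 genes called under each alternative. With 1 array left out the median over time lay between 0.00153, without control 4 h replicate 2, and 0.0768, without control 4 h replicate 3, and with median centring it was 0.0853. The median of Hmgn5 siRNA at 24 h minus control at 4 h was 0.145 with median centring, where it was 0.0967 on the deposited values. Median centring also moved the median of all genes over time from 0.02 to 0.06, and the split of called genes from 481 higher and 482 lower to 477 and 309. With the replicate block 0 members were called in each comparison and the medians stayed at 0.0459, 0.0532 and 0.0967, while 451 genes were called higher and 442 lower over time. Of the other pathway genes called over time, the block left Uba6 (adjusted p = 0.0648), Edem1 (0.0526), Me1 (0.0557), Tap1 (0.0521) and Tapbp (0.072) without a call. The labels do not say that the numbers pair the samples, so the block was an alternative only. Each gene's deviations from its group means were correlated over all genes between arrays of different groups. For same-numbered arrays these correlations of deviations were 0.00851 to 0.285, over 0.1 in 2 of 9 pairs. By this measure each of the 9 arrays correlated best with an array of its own number. A link between same-numbered arrays is thus possible and was not tested further. The number of arrays limits the precision.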
